A study of Mus musculus with 54 samples.

Results

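Hematopoietic stem cells (HSC), the rare bone marrow cells that renew all blood lineages, were compared between 24 h and 1 h after whole-body irradiation in mice that had received vehicle only. The comparison takes 16 of the 54 RNA-seq libraries of the series: the 8 whose column names give 24h and VEH (irradiated, vehicle, 24 h), and the 8 whose names give IR and VEH without 24h or NI (irradiated, vehicle, 1 h). The mice were Fgd5 reporter animals on a C57BL/6 background whose HSC fluoresce with ZsGreen, and no age is given in the sources used here. Each mouse received ethanol in saline under the skin 30 min before 8.53 Gy, a dose lethal to 50% of animals, so both groups carry the reporter, the vehicle and the radiation, and differ in the time of collection. Marrow HSC were sorted by SLAM and LSK surface markers, with a wide gate, together with ZsGreen. A further 15 libraries of non-irradiated reporter mice given the same vehicle (NI below), labelled with both times, served as a yardstick, and 16 libraries of irradiated mice given dmPGE2, a stable prostaglandin E2 analog, enter 1 comparison at the end. Column names match libraries to groups but not to single animals, and library numbers below count the columns of each group.

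Ionizing radiation breaks DNA, and the ATM and ATR kinases then stabilize the transcription factor p53, which switches on genes for cell cycle arrest, repair, apoptosis and its own inhibition. Some p53 targets respond within the first hour and others need longer, through messenger stability, chromatin state or the need for other factors. Breaks also activate NF-kB through ATM, and handling or signaling induces immediate early genes, short-lived messengers that appear and vanish within hours. HSC are mostly quiescent, and loss of marrow cells recruits them into the cell cycle. All levels below are reads per gene scaled to 1000000 reads of the library (counts per 1000000, CPM), each given as the median of a group with its lowest and highest library in brackets. Fold changes are on the log2 scale, 24 h over 1 h, and calls rest on an adjusted p below 0.05 from the quasi-likelihood test of edgeR. "Higher", "lower", "rose" and "fell" describe 24 h relative to 1 h. In sorted bulk samples, a smaller share of cells that express a gene and less RNA per cell cannot be told apart.

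The libraries held 19787106 to 24296393 assigned reads at 24 h, 20437332 to 26217041 at 1 h and 15049364 to 25278219 in NI. All libraries at 1 h carry S numbers of 42 to 72 in their column names and all at 24 h carry numbers from 79 upward, so time and this series of columns cannot be told apart within the irradiated mice. The 15 NI libraries span both series (8 and 7). Their labels put 8 at 1 h and 7 at 24 h, but their column names give no time. This spread over both series allows a fit with the series as a term over 31 libraries. Each of the 7 later NI libraries resembled most the earlier one that carries the same tag in its name (r of their deviations 0.414 to 0.715 over 8671 genes), so the 15 may not be 15 separate mice. The sort genes were present in every group, while Cd48, which the SLAM gate excludes, had a median of 10.3 CPM (9.72 to 26.7) at 24 h, 11.7 CPM (6.43 to 28.02) at 1 h and 14.5 CPM (5.73 to 37.8) in NI, with all groups overlapping. At 24 h, libraries 6 and 8 stood apart from the other 6 on the fourth principal component (scores of -52.5 and -59.7, others from -5.01 to 33.6, 5.5% of the variance). The eosinophil gene Prg2 had 1046 CPM in library 8 and 289 CPM in library 7 of 24 h, where the group median was 2.32 CPM. Its median was 164 CPM (highest 1352) at 1 h and 67.2 CPM (highest 1074) in NI. The neutrophil gene Mpo had 271 CPM in library 8 of 24 h, where the group median was 5.53 CPM, against medians of 252 CPM at 1 h and 235 CPM in NI. At 1 h, library 3 lay far from the other 7 in 10 of the genes and lists examined, listed at the end. Without libraries 6 and 8 of 24 h, 29 p53 targets rose and 13 fell, 67 G2/M genes rose and 1 fell, and 24 NF-kB genes fell. In that fit 6 mast and basophil markers fell, against 2 with all libraries, where 5 of the 9 listed were tested. That fit tested 13211 genes, against 12975, so the members tested may differ. What raised the count was not tested.

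The difference between the times touched much of the transcriptome. Of 12975 genes tested, 3409 were higher (26.3%) and 3351 lower (25.8%) at 24 h, or 52.1% in all. Each list count below is to be read beside these shares. A change of at least 2-fold was reached by 692 higher genes (5.33%) and 851 lower genes (6.56%), and the median over all genes was -0.03. The 8 libraries of 24 h did not overlap the 8 of 1 h in 2773 genes (21.4%), 1562 of them higher (12%) and 1211 lower (9.33%). With the column series as a term, 2215 genes were higher (16%) and 2056 lower (14.9%) of 13826, or 30.9%, and 3989 of the 6760 genes were called in both fits in 1 direction (30.7% of those tested), 2 in opposite directions. The NI libraries of the later series differed from those of the earlier series in 556 genes (4.02%), and in 26 of these by at least 2-fold. With the shared tag as a block, over 14 NI libraries, 1064 genes were higher and 1220 lower in the later series (17.3% of 13178), 38 of them by at least 2-fold. Whether that step holds a change with time alone is not known. The NI labels hold both times, but the columns name none, and libraries with a shared tag may be from the same mice.

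The NI range was set beside each time, with a limit. Every tag of an NI column recurs among the 1 h columns, and none among the 24 h columns. Time and these tags cannot be told apart, and the series term does not cover the tags. For 1918 of the 6760 called genes (28.4%), the medians of 24 h and 1 h lay farther apart than the lowest and highest NI library, and this held for 824 of the 1543 genes with a change of at least 2-fold (53.4%), against 1980 of all 12975 genes (15.3%). The most frequent patterns were a 24 h median above the NI range with 1 h within it (1937 called genes) and a 24 h median below it with 1 h within it (1374). A 1 h median above the NI range with 24 h back within it was found for 436 called genes, and below it with 24 h within it for 296. Medians on opposite sides of the NI range were found in 122 genes that rose and 159 that fell. Over all genes tested, the 24 h median lay above the NI range in 19.4% and below it in 17.3%, and the 1 h median above it in 7.55% and below it in 5.9%.

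**Figure D1:**
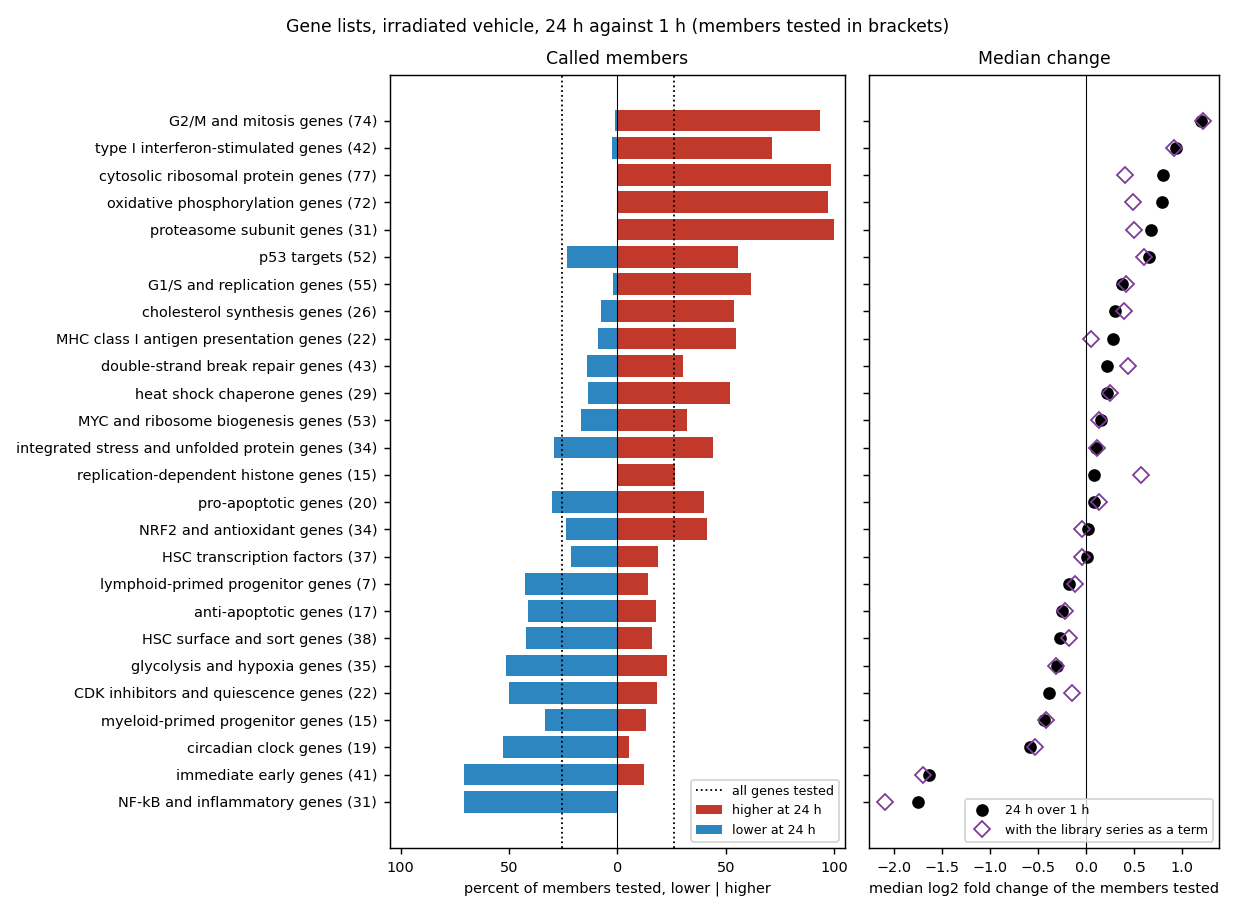
Left, percent of the tested members of each gene list that were called higher (red, to the right) or lower (blue, to the left) at 24 h than at 1 h, with the shares of all genes tested as dotted lines (26.3% and 25.8%). Right, the median log2 fold change of each list (black) and the same with the column series as a term (violet). G2/M genes have the highest median with 1.2 and NF-kB genes the lowest with -1.75, and the ribosomal protein list moves to 0.40 with the series as a term, against 0.80 without it.

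The p53 targets were high at both times, with more of them above the NI range at 24 h and levels that moved in both directions. Of 52 targets tested 29 rose, 12 fell and 11 were not called, with a median of 0.66, beside -0.03 over all genes and shares of 26.3% and 25.8% in each direction. The 24 h median lay above the NI range in 46 of 52 (88.5%, against 19.4% of all genes) and the 1 h median in 31 of 52 (59.6%, against 7.55%). Both did so in 30 targets, and 16 were above it at 24 h while still within it at 1 h. Some members were taken into the list with earlier results of these data known, so its direction is no independent evidence. With the column series as a term 24 rose and 9 fell. The list had a mean per library of 6.49 to 6.80 log2 CPM at 24 h, 5.49 to 5.78 at 1 h and 3.32 to 3.73 in NI, with no overlap between any pair of groups.

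Targets that were near their 24 h level after 1 h included Cdkn1a, the p21 inhibitor of cyclin-dependent kinases (chr17:29090986-29100722 in mm10). It had a median of 684 CPM (622 to 911) at 24 h, 629.97 CPM (559 to 847) at 1 h and 6.82 CPM (5.74 to 17.6) in NI. The irradiated groups overlapped each other and lay wholly above NI. For Cdkn1a the log2 fold change was 0.12 (SE 0.09, adjusted p = 0.307), which was not called. Phlda3, which encodes an inhibitor of Akt, behaved likewise with a median of 384 CPM (335 to 469) at 24 h, 406 CPM (282 to 503) at 1 h and 5.62 CPM (4.13 to 7.65) in NI. For Phlda3 the log2 fold change was -0.03 (SE 0.10, adjusted p = 0.787), which was not called. Mdm2, the ubiquitin ligase that degrades p53, had a median of 323 CPM (273 to 455) at 24 h, 396 CPM (274 to 482) at 1 h and 87.1 CPM (66.4 to 107) in NI. For Mdm2 the log2 fold change was -0.21 (SE 0.11, adjusted p = 0.0996), which was not called, and it passed the threshold in 3 of 29 alternative fits. Ccng1, a cyclin that p53 induces, had a median of 1425 CPM (1308 to 1632) at 24 h, 964 CPM (859.5 to 1155) at 1 h and 138 CPM (106 to 182) in NI. Ccng1 rose by 0.56 log2 units (SE 0.07, adjusted p = 1e-06), and no groups overlapped. The p53 gene Trp53 itself had a median of 358 CPM (294 to 389) at 24 h, 333 CPM (221 to 357) at 1 h and 321 CPM (268 to 390.1) in NI, all groups overlapping. For Trp53 the log2 fold change was 0.15 (SE 0.09, adjusted p = 0.166), which was not called.

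Other targets were highest at 1 h and lower at 24 h. Gdf15, a stress cytokine, had a median of 106 CPM (77.6 to 120.5) at 24 h, 1249 CPM (851 to 1551) at 1 h and 1.36 CPM (0.753 to 2.36) in NI. No group overlapped another. Gdf15 fell by 3.56 log2 units (SE 0.12, adjusted p = 8.14e-15). Btg2, an antiproliferative factor, had a median of 143 CPM (129 to 189) at 24 h, 659 CPM (571 to 937) at 1 h and 16 CPM (6.98 to 48.96) in NI, again without overlap of the irradiated groups. Btg2 fell by 2.2 log2 units (SE 0.11, adjusted p = 2.83e-12). Ier5 had medians of 92.9 CPM at 24 h, 299 CPM at 1 h and 19.2 CPM in NI. Ier5 fell by 1.61 log2 units (SE 0.08, adjusted p = 1.01e-11). Of the p53 targets that trigger apoptosis through mitochondria, Bbc3, the gene of Puma, had a median of 119 CPM (104 to 136) at 24 h, 297 CPM (240.4 to 398) at 1 h and 14.5 CPM (11.1 to 20.6) in NI. The irradiated groups did not overlap. Bbc3 fell by 1.3 log2 units (SE 0.09, adjusted p = 4.32e-10). Pmaip1, the gene of Noxa, had a median of 36.9 CPM (23.1 to 46.7) at 24 h, 79.9 CPM (70.96 to 91.9) at 1 h and 0.641 CPM (0 to 1.47) in NI. Pmaip1 fell by 1.16 log2 units (SE 0.12, adjusted p = 1.3e-07), and the value was -1.2 with the column series as a term (adjusted p = 0.107). Plk3, a stress-responsive kinase, had a median of 5.83 CPM (1.44 to 12.99) at 24 h, 36.3 CPM (22.2 to 44.1) at 1 h and 5.86 CPM (2.76 to 14.4) in NI, so that 24 h overlapped NI and not 1 h. Plk3 fell by 2.51 log2 units (SE 0.31, adjusted p = 1.11e-06).

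A last set of targets was high at 24 h and much lower at 1 h. Most of these were near the NI level at 1 h, while the 1 h median of Zmat3 was above the NI range. Zmat3, which encodes an RNA-binding regulator of splicing, had a median of 80.2 CPM (65.99 to 91.3) at 24 h, 5.83 CPM (3.62 to 7.61) at 1 h and 2.28 CPM (1.12 to 4.76) in NI. Dcxr, a carbonyl reductase gene, had a median of 339 CPM (303 to 375) at 24 h, 24.6 CPM (19.3 to 32.2) at 1 h and 24.8 CPM (17.6 to 34.7) in NI, and the adenylate kinase gene Ak1 had a median of 429 CPM (382 to 472) at 24 h, 50.4 CPM (39.8 to 56.3) at 1 h and 48.8 CPM (29.9 to 60.9) in NI. In all of them the 8 libraries of 24 h lay above every other library. Zmat3 rose by 3.77 log2 units (SE 0.14, adjusted p = 2.63e-14). Dcxr rose by 3.76 log2 units (SE 0.11, adjusted p = 1.2e-15). Ak1 rose by 3.13 log2 units (SE 0.07, adjusted p = 7.4e-17). Sulf2, a sulfatase that edits heparan sulfate, had a median of 221 CPM (194 to 269) at 24 h, 6.53 CPM (3.94 to 14.8) at 1 h and 5.42 CPM (2.08 to 12.8) in NI. Sulf2 rose by 4.89 log2 units (SE 0.23, adjusted p = 3.05e-12). The carboxylesterase gene Ces2e had a median of 73.5 CPM (41.8 to 88.5) at 24 h, 0.0467 CPM (0 to 0.836) at 1 h and 0 CPM (0 to 3.46) in NI. Ces2e rose by 8.11 log2 units (SE 0.53, adjusted p = 4.62e-10). Ano3, an anoctamin gene, had 1787 reads over the 8 libraries of 24 h and 3 over the 8 of 1 h, a ratio of 645 (95% interval of counting error alone 220.3 to 3130.1), and was not called with the column series as a term (a fitted log2 change of 6.66, adjusted p = 0.952). Zmat3, Dcxr, Ak1, Phlda3, Rps27l and Cdc20 were picked for the text after their values were seen.

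**Figure D2:**
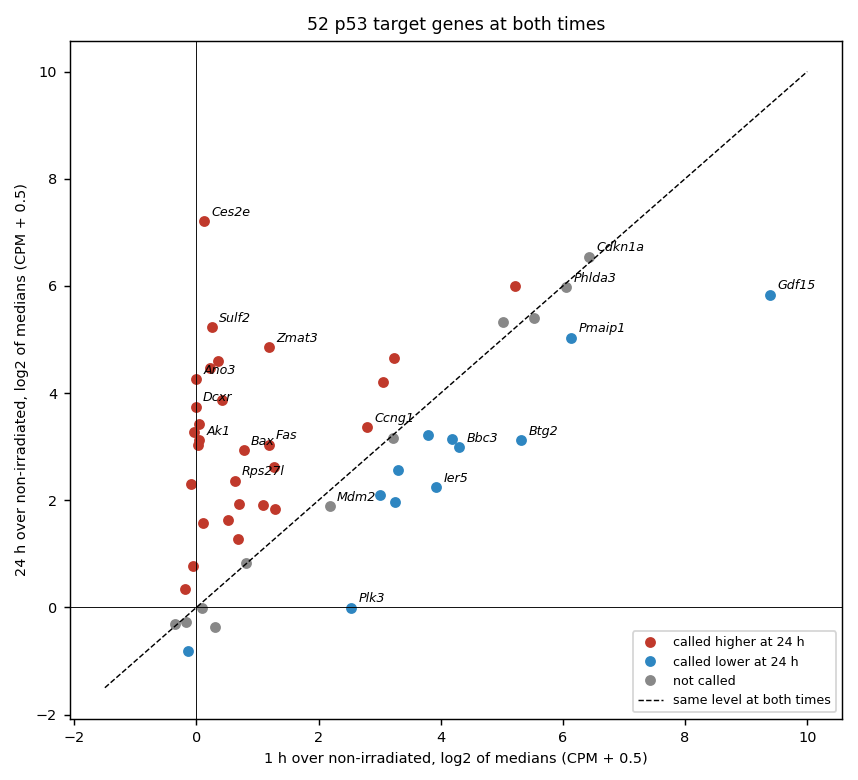
Each point is 1 of the 52 p53 targets, placed by its 1 h median (horizontal) and its 24 h median (vertical) relative to the NI median, as log2 of CPM plus 0.5. Cdkn1a and Phlda3 lie near the dashed line of equal levels, Gdf15, Btg2 and Plk3 lie below it, and Ces2e, Sulf2, Zmat3, Dcxr and Ak1 lie above it, with 1 h values under those of Cdkn1a.

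Bax, the effector that opens the mitochondrial membrane in apoptosis (chr7:45461695-45466898 in mm10), was above every NI library at 1 h and higher again at 24 h. It had a median of 433 CPM (395 to 449) at 24 h, 96.4 CPM (72.02 to 109) at 1 h and 56.2 CPM (43.5 to 70.6) in NI, with no overlap between any groups. Bax rose by 2.21 log2 units (SE 0.08, adjusted p = 1e-14). Rps27l, a p53-induced ribosomal protein paralog, had a median of 719.9 CPM (622 to 853) at 24 h, 216 CPM (209 to 271) at 1 h and 139.8 CPM (100.1 to 185) in NI. Rps27l rose by 1.69 log2 units (SE 0.08, adjusted p = 1.1e-12). Fas, the gene of a death receptor, had a median of 53.01 CPM (37.4 to 85.9) at 24 h, 14.3 CPM (10.5 to 18.2) at 1 h and 6.03 CPM (3.604 to 8.05) in NI. Fas rose by 1.95 log2 units (SE 0.17, adjusted p = 8.98e-09). The pro-apoptotic list as a whole held no common direction between the times, with 8 of 20 higher, 6 lower and a median of 0.08. Its 24 h medians lay above the NI range in 11 (55%, against 19.4% of all genes) and below it in 3. The 1 h medians lay above that range in 8 (40%, against 7.55%) and below it in 3. Of 17 anti-apoptotic genes 3 rose and 7 fell (median -0.25). Bcl2l1, the gene of the survival factor Bcl-xL, had a median of 135 CPM (104 to 176) at 24 h, 57.3 CPM (50.9 to 68.4) at 1 h and 59.3 CPM (48.8 to 69.9) in NI. Bcl2l1 rose by 1.24 log2 units (SE 0.09, adjusted p = 2e-09), with 24 h above both other groups. Birc3, an NF-kB-induced inhibitor of cell death, had a median of 39.4 CPM (28.5 to 59.6) at 24 h, 249 CPM (182 to 419) at 1 h and 53.7 CPM (40.2 to 68.1) in NI. Birc3 fell by 2.65 log2 units (SE 0.16, adjusted p = 1.18e-10). The survival kinase gene Pim3 had medians of 49.5 CPM at 24 h, 143 CPM at 1 h and 54.1 CPM in NI. Pim3 fell by 1.5 log2 units (SE 0.08, adjusted p = 9.98e-12).

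The stretches before the starts of Cdkn1a and Bax are shown because these targets differ in when they were high. They are from RefSeq (GRCm38.p6, the sequence of mm10), 5′ to 3′ on the strand of the gene and ending at the base before the annotated start. Capitals mark matches to the decamer, the 10-base element of which p53 binds a pair.
Cdkn1a, chr17:29090839-29090978, plus strand: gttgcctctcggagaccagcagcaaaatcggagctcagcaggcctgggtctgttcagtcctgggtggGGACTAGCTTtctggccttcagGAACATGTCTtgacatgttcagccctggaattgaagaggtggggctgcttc
Bax, chr7:45466899-45467118, minus strand: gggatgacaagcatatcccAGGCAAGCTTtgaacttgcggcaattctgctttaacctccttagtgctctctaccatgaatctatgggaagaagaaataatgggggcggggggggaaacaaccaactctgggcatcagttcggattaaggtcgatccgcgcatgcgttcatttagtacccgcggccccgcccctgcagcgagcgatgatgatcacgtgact
Cdkn1a has a pair of matches, at bases -73 to -64 and -51 to -42 from the start shown, and Bax has 1, at -201 to -192. The stretches differ in length, with 140 bases for Cdkn1a and 220 for Bax. Windows of 250 bases before to 50 after a start were searched on both strands for the p53 decamer. By symbol 42 of the 52 targets were matched (80.8%). Cdkn1a had 2 such windows, and only that of the start shown held a match. The decamer was in 24.6% of the windows of p53 targets, against 6.81% of those of all genes tested (10380 matched, 80%) and 8.36% of all windows in the table. A match is a description of letters and does not show binding.

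Genes of cell division rose nearly as a block. Of 74 G2/M and mitosis genes 69 rose, 1 fell and 4 were not called, with a median of 1.2, and with the column series as a term 68 rose and 0 fell (median 1.22). At 24 h the median lay above the NI range in 68 of the 74 genes (91.9%), while at 1 h it lay within it in 70. The list had a mean per library of 6.19 to 6.67 log2 CPM at 24 h, 4.44 to 5.66 at 1 h and 4.85 to 5.70 in NI, so 24 h did not overlap either other group. Without libraries 6 and 8 of 24 h, 67 rose and 1 fell.

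Plk1, the kinase that drives mitotic entry (chr7:122159437-122169875 in mm10), had a median of 155 CPM (100.02 to 198) at 24 h, 18.7 CPM (10.6 to 26) at 1 h and 46.3 CPM (29.3 to 76.7) in NI. Its 24 h libraries lay above all others and its 1 h libraries below all NI libraries. Plk1 rose by 3.03 log2 units (SE 0.19, adjusted p = 1.96e-10). Aurka, the Aurora A kinase gene of the spindle poles, had a median of 157 CPM (110.2 to 202) at 24 h, 22.9 CPM (16.5 to 37.2) at 1 h and 45.9 CPM (33.7 to 83.4) in NI, with 24 h above both other groups and 1 h overlapping NI. Aurka rose by 2.75 log2 units (SE 0.16, adjusted p = 3.9e-11). Ccnb1, the gene of cyclin B1, had a median of 418 CPM (288 to 555) at 24 h, 58.6 CPM (32.1 to 103) at 1 h and 85.9 CPM (55.5 to 161) in NI. Ccnb1 rose by 2.8 log2 units (SE 0.21, adjusted p = 3.25e-09). Its partner Cdk1 had a median of 279 CPM (206 to 330.5) at 24 h, 77.1 CPM (48.2 to 91.99) at 1 h and 85.6 CPM (65.8 to 131) in NI. Cdk1 rose by 1.96 log2 units (SE 0.13, adjusted p = 3.52e-10). For the ubiquitin pathway that ends mitosis, Cdc20 had a median of 328 CPM (232 to 446) at 24 h, 82.7 CPM (44.4 to 113) at 1 h and 97.6 CPM (74.9 to 171) in NI. Cdc20 rose by 2.2 log2 units (SE 0.17, adjusted p = 3.14e-09). Ube2c had a median of 281 CPM (203 to 362) at 24 h, 46.7 CPM (10.9 to 77.5) at 1 h and 53.4 CPM (36.8 to 109) in NI. Ube2c rose by 2.71 log2 units (SE 0.28, adjusted p = 3.82e-07). In these 4 genes 1 h and NI overlapped and 24 h overlapped neither. Top2a, the topoisomerase of chromosome condensation, moved less, with a median of 302 CPM (260.5 to 405) at 24 h, 240.5 CPM (90.8 to 249.8) at 1 h and 191 CPM (115 to 232) in NI. Top2a rose by 0.71 log2 units (SE 0.17, adjusted p = 0.00175). Mki67, a common marker of cycling cells, was the member that fell: it had a median of 14.1 CPM (10.99 to 23.2) at 24 h, 37.2 CPM (5.800 to 94.9) at 1 h and 25.8 CPM (4.85 to 82.1) in NI, with all groups overlapping. Mki67 fell by 1.41 log2 units (SE 0.39, adjusted p = 0.00484). The difference was -0.47 with the column series as a term (adjusted p = 0.653).

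The stretches before Cdc20, Cdk1 and Ccnb1 are shown because 2 elements known to time mitotic genes recur there. These are the CHR element (TTTGAA), to which the DREAM repressor and the B-Myb and FoxM1 activators bind, and the CCAAT box (CCAAT) of NF-Y. Source, strand and end are as for Cdkn1a above, and capitals mark both motifs on either strand.
Cdc20, chr4:118437344-118437483, minus strand: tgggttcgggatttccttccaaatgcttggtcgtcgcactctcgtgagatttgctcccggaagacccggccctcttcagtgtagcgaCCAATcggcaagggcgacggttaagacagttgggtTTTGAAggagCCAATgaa
Cdk1, chr10:69352913-69353052, minus strand: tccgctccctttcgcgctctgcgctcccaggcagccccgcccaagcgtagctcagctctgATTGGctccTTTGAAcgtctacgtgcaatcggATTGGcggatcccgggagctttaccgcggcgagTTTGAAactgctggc
Ccnb1, chr13:100786487-100786626, minus strand: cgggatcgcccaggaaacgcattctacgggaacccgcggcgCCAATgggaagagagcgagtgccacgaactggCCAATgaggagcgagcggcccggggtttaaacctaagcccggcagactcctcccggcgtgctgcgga
The CHR element lies at -18 to -13 in Cdc20 and at -71 to -66 and -15 to -10 in Cdk1, and these letters are not in the Ccnb1 stretch, which has CCAAT boxes at -99 to -95 and -67 to -63. The CHR element was in 63.1% of the windows of G2/M genes (60 of 74 genes matched, 81.1%), against 12.2% of those of all genes tested and 17.9% of all windows. The CCAAT box was in 72.3%, against 37.7% of windows of all genes tested and 37.4% of all windows. The motifs were counted separately, matches of both may overlap, and the absence of a match says nothing about the factors.

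G1/S and replication genes rose too, in smaller steps. Of 55 members 34 rose, 1 fell and 20 were not called (median 0.37), and 26 rose and 0 fell with the column series as a term. The 24 h median was above the NI range in 31 of 55 (56.4%) and the 1 h median in 2. Ccne1, the gene of cyclin E1, had a median of 23.9 CPM (10.7 to 41.7) at 24 h, 10.7 CPM (5.03 to 13.6) at 1 h and 10.1 CPM (6.56 to 14.5) in NI, with some overlap. Ccne1 rose by 1.27 log2 units (SE 0.23, adjusted p = 0.000109). Rrm2, the gene of the small subunit of ribonucleotide reductase, had a median of 319.6 CPM (268 to 395) at 24 h, 143 CPM (108 to 179) at 1 h and 103 CPM (72.3 to 138) in NI. Rrm2 rose by 1.22 log2 units (SE 0.11, adjusted p = 2.51e-08). Rfc4, a clamp loader subunit, had a median of 114 CPM (104.7 to 122) at 24 h, 51.4 CPM (48.95 to 65.4) at 1 h and 63.7 CPM (39.5 to 72.1) in NI. Rfc4 rose by 1.1 log2 units (SE 0.07, adjusted p = 2.34e-10). For both the 24 h libraries lay above all others. Rfc4 shares 13.2% of its exon bases with a gene on the opposite strand, and these libraries mark no strand. The sliding clamp gene Pcna had a median of 274 CPM (263 to 338) at 24 h, 191 CPM (169 to 233) at 1 h and 193 CPM (158 to 222) in NI. Pcna rose by 0.56 log2 units (SE 0.07, adjusted p = 6.82e-07). The member that fell was Slbp, which binds histone messengers. Slbp fell by 0.32 log2 units (SE 0.06, adjusted p = 0.000309), and the value was -0.22 with the column series as a term (adjusted p = 0.0744). Of 24 replication-dependent histone genes 9 had too few reads to be tested. Among the 15 tested, 4 rose and 0 fell. Only 2 rose without any 1 of libraries 1, 5 and 7 of 24 h or 5 and 8 of 1 h, and 2 fell without library 6 of 1 h.

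All 3 D cyclins, which carry growth signals to the cell cycle, rose. Ccnd1 had a median of 100.3 CPM (48.3 to 136) at 24 h, 15.2 CPM (7.38 to 19.7) at 1 h and 21.1 CPM (12.2 to 37.9) in NI, with 24 h above every other library. Ccnd1 rose by 2.83 log2 units (SE 0.23, adjusted p = 4.71e-09). Ccnd2 had medians of 877 CPM at 24 h, 546 CPM at 1 h and 606 CPM in NI. Ccnd2 rose by 0.65 log2 units (SE 0.07, adjusted p = 5.09e-07). Ccnd3 had medians of 627 CPM at 24 h, 357 CPM at 1 h and 441 CPM in NI. Ccnd3 rose by 0.86 log2 units (SE 0.06, adjusted p = 2.63e-10). It shares 15.8% of its exon bases with Bysl on the opposite strand. Genes that hold cells in quiescence went the other way more often: of 22 CDK inhibitors and quiescence genes 4 rose and 11 fell (median -0.38, and -0.14 with the column series as a term). The list had a mean per library of 5.72 to 5.97 log2 CPM at 24 h, 6.33 to 6.78 at 1 h and 5.35 to 5.75 in NI. The 1 h median lay above the NI range in 8 genes (36.4%, against 7.55% of all genes) and below it in 2. The 24 h median lay above it in 6 (27.3%, against 19.4%) and below it in 7 (31.8%, against 17.3%). Tsc22d3, a glucocorticoid-induced gene known as Gilz, had a median of 286 CPM (179 to 439.9) at 24 h, 1131 CPM (978 to 3169.95) at 1 h and 859 CPM (670.04 to 2636) in NI. Tsc22d3 fell by 2.24 log2 units (SE 0.29, adjusted p = 7.51e-06). Btg1 had a median of 39.1 CPM (33.3 to 50.4) at 24 h, 139 CPM (121 to 246) at 1 h and 58.6 CPM (45.99 to 92.1) in NI. Btg1 fell by 1.86 log2 units (SE 0.13, adjusted p = 8.81e-10). Txnip, a brake on glucose uptake, had a median of 804 CPM (645 to 1037) at 24 h, 1117 CPM (883 to 1797) at 1 h and 1773 CPM (1237 to 2161) in NI. Txnip fell by 0.51 log2 units (SE 0.13, adjusted p = 0.00271). Among those that rose, Cdkn2d, the p19 inhibitor of CDK4 and CDK6, had a median of 81.9 CPM (60.6 to 87.95) at 24 h, 44.9 CPM (35.3 to 71.2) at 1 h and 72.6 CPM (60.3 to 80.9) in NI. Cdkn2d rose by 0.77 log2 units (SE 0.13, adjusted p = 3.76e-05). Txnip overlaps an antisense gene over 21.6% of its exon bases.

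**Figure D3:**
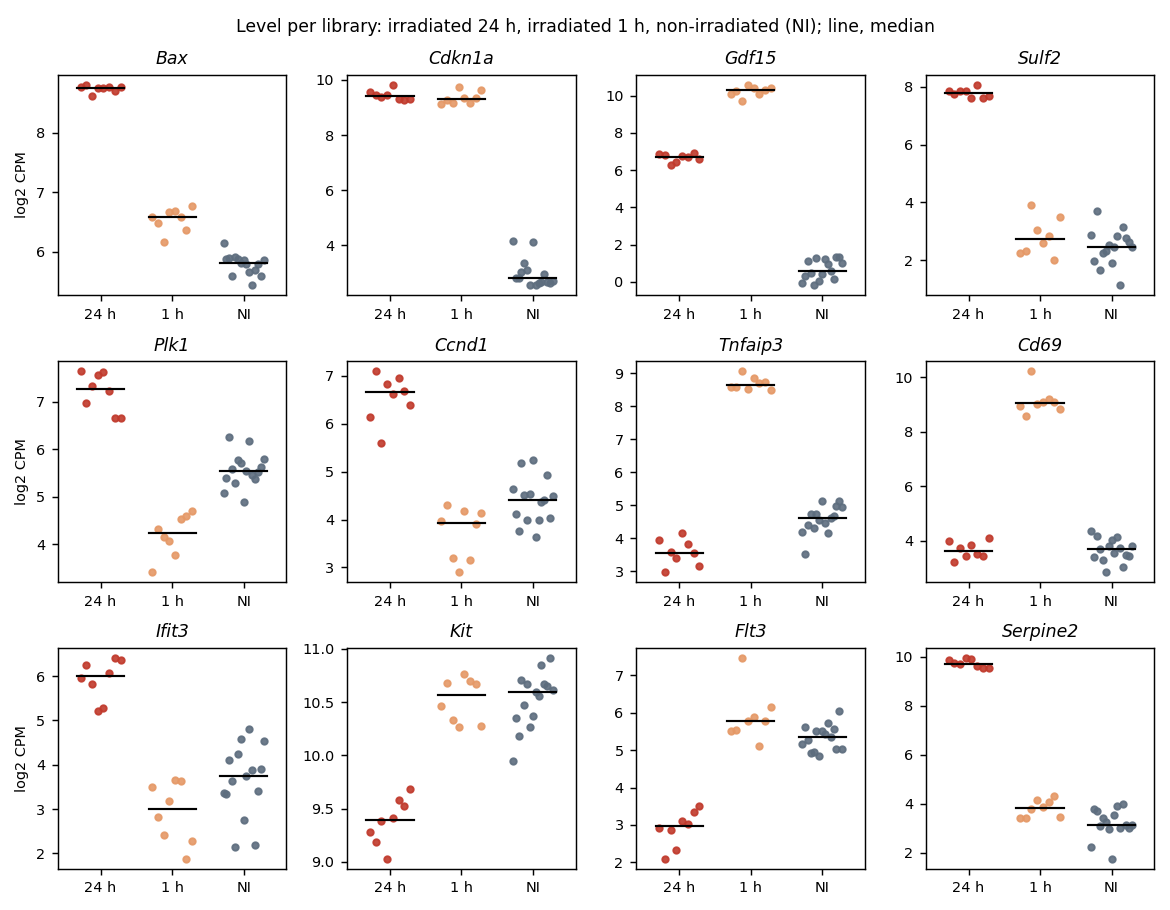
Level of 12 genes in each library as log2 CPM (vertical), with 24 h (red), 1 h (orange) and NI (grey) side by side and the group median as a line. Cdkn1a is high at both times, Gdf15, Tnfaip3 and Cd69 peak at 1 h, and Bax, Sulf2, Plk1, Ccnd1, Ifit3 and Serpine2 are highest at 24 h while Kit and Flt3 are lowest there.

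NF-kB targets, which lead inflammation and also restrain it, were high at 1 h and down at 24 h. Of 31 tested 22 fell and 0 rose, with a median of -1.75, and 21 fell with the column series as a term. The 1 h median stood above the NI range in 21 of 31 (67.7%, against 7.55% of all genes), and the 24 h median stood below it in 12 (38.7%, against 17.3%). For 8 genes both held. The list had a mean per library of 3.25 to 3.63 log2 CPM at 24 h, 5.34 to 6.13 at 1 h and 3.67 to 3.95 in NI. All 8 libraries of 24 h thus lay under the lowest NI library, and all 8 of 1 h above the highest.

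Tnfaip3, the gene of the A20 enzyme that shuts NF-kB signaling off, had a median of 11.6 CPM (7.73 to 17.6) at 24 h, 400.3 CPM (363 to 532) at 1 h and 24.5 CPM (11.4 to 34.8) in NI. Tnfaip3 fell by 5.08 log2 units (SE 0.16, adjusted p = 2.46e-15). Nfkbia, the gene of the inhibitor IkBa, had a median of 111 CPM (91.6 to 156) at 24 h, 1825 CPM (1573 to 2498) at 1 h and 182 CPM (141 to 275) in NI. Nfkbia fell by 3.95 log2 units (SE 0.12, adjusted p = 2.03e-15). Bcl3, a nuclear partner of NF-kB, had a median of 23 CPM (20.2 to 30.1) at 24 h, 166 CPM (147 to 231) at 1 h and 41.4 CPM (24.8 to 56.9) in NI. Bcl3 fell by 2.89 log2 units (SE 0.12, adjusted p = 1.93e-13). In these genes 24 h and 1 h did not overlap, and the 24 h medians of Nfkbia and Bcl3 were below the whole NI range. Rel, a subunit of NF-kB, had medians of 3.27 CPM at 24 h, 38.5 CPM at 1 h and 5.42 CPM in NI. Rel fell by 3.72 log2 units (SE 0.36, adjusted p = 4.41e-08). Cd83, an activation marker, had medians of 3.03 CPM at 24 h, 56.04 CPM at 1 h and 4.61 CPM in NI. Cd83 fell by 4.24 log2 units (SE 0.55, adjusted p = 6.36e-06). Cxcl2, a chemokine that attracts neutrophils, had 0 reads over the 8 libraries of 24 h and 5451 over those of 1 h. Against a floor of 3 reads over the group it was at least 1691-fold lower, and the list's median is the same with Cxcl2 at this bound, since it lies at the end of the order. Cxcl3, a related chemokine gene, had a median of 0.45 CPM (0 to 1.82) at 24 h, 11.3 CPM (5.37 to 23.3) at 1 h and 0.225 CPM (0 to 0.801) in NI. Cxcl3 fell by 4.39 log2 units (SE 0.69, adjusted p = 2.23e-05).

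Most immediate early genes were lower too. Of 41 tested 5 rose and 29 fell (median -1.64), and 3 rose and 24 fell with the column series as a term. At 1 h 24 stood above the NI range (58.5%), and for 17 of these 24 h was back within it. Cd69, an early activation receptor (chr6:129267325-129275369 in mm10), had a median of 12.2 CPM (9.18 to 16.8) at 24 h, 532 CPM (383 to 1191) at 1 h and 12.7 CPM (7.12 to 20.6) in NI, with 24 h and NI overlapping and 1 h far above both. Cd69 fell by 5.52 log2 units (SE 0.23, adjusted p = 8.11e-13). Zfp36, which destabilizes inflammatory messengers, had a median of 32.6 CPM (28.8 to 38.4) at 24 h, 372 CPM (295 to 714) at 1 h and 43.98 CPM (33.9 to 425) in NI. Zfp36 fell by 3.66 log2 units (SE 0.16, adjusted p = 5.81e-13). Its highest NI library reached into the 1 h range. The stress gene Gadd45b had a median of 5.02 CPM (2.79 to 8.704) at 24 h, 54.9 CPM (46.5 to 74.3) at 1 h and 5.89 CPM (3.97 to 9.604) in NI. Gadd45b fell by 3.46 log2 units (SE 0.19, adjusted p = 2.02e-11). The classical members were scattered widely within each group. Fos, a subunit of AP-1, had a median of 8.16 CPM (4.19 to 19.5) at 24 h, 16.3 CPM (9.197 to 80.6) at 1 h and 5.68 CPM (1.25 to 789) in NI. Fos fell by 1.35 log2 units (SE 0.41, adjusted p = 0.00997). Nr4a1, an orphan nuclear receptor, had a median of 16.3 CPM (6.16 to 25.4) at 24 h, 29.8 CPM (16.6 to 191) at 1 h and 12.7 CPM (7.396 to 23.1) in NI. Nr4a1 fell by 1.55 log2 units (SE 0.46, adjusted p = 0.00975). The zinc finger factor gene Egr1 had a median of 169 CPM (124 to 245) at 24 h, 89.6 CPM (31.7 to 225) at 1 h and 79.3 CPM (40.99 to 698) in NI. Egr1 rose by 0.91 log2 units (SE 0.31, adjusted p = 0.0223). In all of these the groups overlapped, and none was called with the column series as a term. In that fit Fos had a log2 change of -1.63 (adjusted p = 0.511), Nr4a1 had -1.37 (adjusted p = 0.0525) and Egr1 had 0.92 (adjusted p = 0.424). Egr1 also lost its call without libraries 6 and 8 of 24 h. Atf3, a stress factor gene near the detection limit, had a median of 0 CPM (0 to 2.42) at 24 h, 2.200 CPM (0.934 to 6.36) at 1 h and 0.295 CPM (0 to 0.702) in NI. Atf3 fell by 2.64 log2 units (SE 1.01, adjusted p = 0.0336). This call was lost without any 1 of libraries 1 to 4 of 24 h or of libraries 4 and 5 of 1 h.

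The 5 members of that list that rose were Egr1, Dusp6, Gadd45g, Trib1 and Rgs2. Dusp6, a phosphatase that ERK induces and that restrains ERK, had a median of 130.2 CPM (106 to 174) at 24 h, 37.1 CPM (24.5 to 57.9) at 1 h and 117 CPM (76.2 to 169.9) in NI: the 24 h median lay in the NI range and all of 1 h below it. Dusp6 rose by 1.87 log2 units (SE 0.16, adjusted p = 6.2e-09). Myc, which drives growth, had a median of 266 CPM (228 to 318) at 24 h, 408 CPM (255 to 541) at 1 h and 416 CPM (299 to 514) in NI. Myc fell by 0.51 log2 units (SE 0.14, adjusted p = 0.00405), and the value was -0.41 with the column series as a term (adjusted p = 0.0676). The 53 MYC targets and ribosome biogenesis genes tested had 17 higher and 9 lower, or 14 lower without library 3 of 1 h (median 0.15). The share of that list called was 49.1%, against 52.1% of all genes. Circadian clock genes were lower in 10 of 19 and higher in 1 (median -0.59). Per1, a clock repressor that also responds to stress hormones, had a median of 19.8 CPM (10.7 to 42.5) at 24 h, 122 CPM (94.6 to 165) at 1 h and 29.8 CPM (18.9 to 101.1) in NI. Per1 fell by 2.4 log2 units (SE 0.24, adjusted p = 9.97e-08). Nr1d2 had medians of 36.5 CPM at 24 h, 95.2 CPM at 1 h and 80.4 CPM in NI. Nr1d2 fell by 1.3 log2 units (SE 0.19, adjusted p = 9.79e-06). The time of day at collection is not given in the sources used here, and the median exon length of the list was 4180 bases, in the range of long genes described below.

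Interferon-stimulated genes, the antiviral program that also answers self DNA, stood out at 24 h: 28 of 42 medians lay above the NI range at 24 h (66.7%) and 1 at 1 h (2.38%). Of the 42 genes 30 rose, 1 fell and 11 were not called (median 0.94), and 28 rose and 1 fell with the column series as a term. The list had a mean per library of 6.15 to 6.84 log2 CPM at 24 h, 5.37 to 6.09 at 1 h and 5.29 to 6.26 in NI, where the lowest 24 h library lay below the highest NI library and above all of 1 h. Ifit3, which blocks viral translation, had a median of 64.4 CPM (37.2 to 84.4) at 24 h, 7.98 CPM (3.54 to 12.5) at 1 h and 13.2 CPM (4.27 to 27.6) in NI. Ifit3 rose by 2.96 log2 units (SE 0.27, adjusted p = 1.78e-08). The ubiquitin-like modifier gene Isg15 had a median of 101.3 CPM (65.1 to 122) at 24 h, 26.3 CPM (18.95 to 35.7) at 1 h and 24.8 CPM (15.02 to 43.3) in NI. Isg15 rose by 1.98 log2 units (SE 0.14, adjusted p = 6.68e-10). Ifi27l2a had a median of 36.6 CPM (24.6 to 71.1) at 24 h, 4.97 CPM (2.199 to 6.77) at 1 h and 5.51 CPM (1.402 to 11.7) in NI. Ifi27l2a rose by 3.28 log2 units (SE 0.30, adjusted p = 2.55e-08). In these 3 genes 24 h overlapped neither 1 h nor NI. Ifi27l2a shares 11.7% of its exon bases with Ifi27. The member that fell was Irf1, a factor that NF-kB also induces, with a median of 181 CPM (98.3 to 263) at 24 h, 1082 CPM (665 to 1202) at 1 h and 258 CPM (189 to 303) in NI. Irf1 fell by 2.35 log2 units (SE 0.19, adjusted p = 7.37e-09).

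Antigen presentation through MHC class I moved less: 12 of 22 genes rose and 2 fell (median 0.28), and 7 rose and 1 fell with the column series as a term (median 0.05). The immunoproteasome gene Psmb8 had a median of 836 CPM (732 to 875) at 24 h, 511 CPM (437 to 572) at 1 h and 625 CPM (541 to 707) in NI. Psmb8 rose by 0.71 log2 units (SE 0.06, adjusted p = 4.49e-09). The proteasome activator gene Psme2 had a median of 316 CPM (299 to 338) at 24 h, 168 CPM (106 to 181) at 1 h and 181 CPM (156 to 226) in NI. Psme2 rose by 1.04 log2 units (SE 0.08, adjusted p = 4.64e-09). Nlrc5, the transactivator of the class I genes, went down, with a median of 40.5 CPM (34.2 to 63.4) at 24 h, 94.1 CPM (59.3 to 129) at 1 h and 62.2 CPM (45.9 to 91.9) in NI. Nlrc5 fell by 1.04 log2 units (SE 0.15, adjusted p = 1.07e-05). Near-identical H2 genes share reads, so single members of that family are uncertain.

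**Figure D4:**
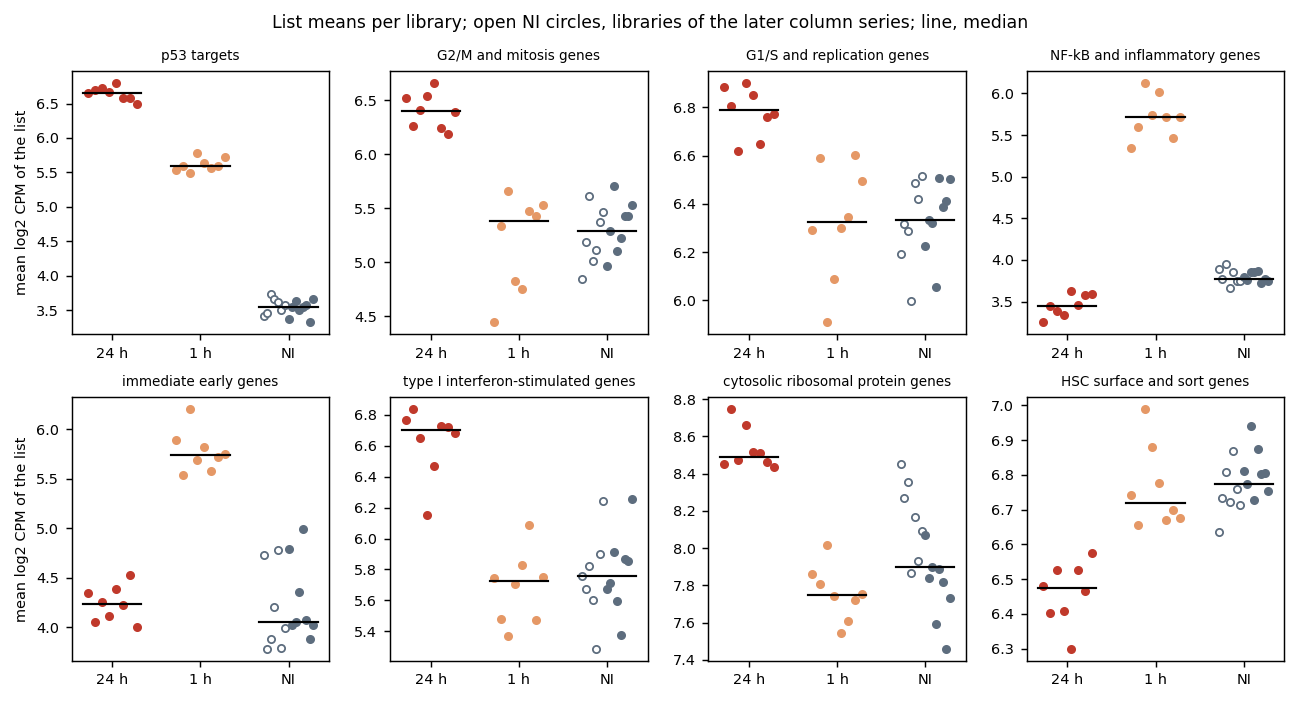
Mean log2 CPM of 8 gene lists in each library (vertical), with 24 h, 1 h and NI side by side, the group median as a line, and NI libraries of the later column series drawn open. In the p53, G2/M and NF-kB lists 24 h does not overlap 1 h or NI, and in the ribosomal protein list the open NI points lie above most of the filled ones.

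Genes of HSC identity shifted in part. Of 38 surface and sort genes 6 rose and 16 fell (median -0.27), with 24 h medians below the NI range in 15 (39.5%, against 17.3% of all genes) and 1 h medians in 4. The list had a mean per library of 6.30 to 6.58 log2 CPM at 24 h, 6.65 to 6.99 at 1 h and 6.64 to 6.94 in NI, and 24 h overlapped neither other group. Kit, the stem cell factor receptor and 1 of the sort markers, had a median of 673 CPM (522 to 822) at 24 h, 1518 CPM (1228 to 1734) at 1 h and 1544 CPM (984 to 1924) in NI, all 8 libraries of 24 h below the rest. Kit fell by 1.11 log2 units (SE 0.10, adjusted p = 1.33e-08). Ly6a, the gene of Sca-1 and another sort marker, had a median of 729.7 CPM (461 to 814) at 24 h, 279.9 CPM (231 to 346) at 1 h and 326 CPM (219.9 to 433) in NI. Ly6a rose by 1.28 log2 units (SE 0.11, adjusted p = 6.92e-09). The SLAM receptor gene Slamf1 had medians of 31.6 CPM at 24 h, 34.3 CPM at 1 h and 54.8 CPM in NI. For Slamf1 the log2 fold change was -0.03 (SE 0.17, adjusted p = 0.911), which was not called. Procr, the gene of EPCR, had medians of 110.5 CPM at 24 h, 106 CPM at 1 h and 119.6 CPM in NI. For Procr the log2 fold change was 0.09 (SE 0.14, adjusted p = 0.594), which was not called. Fgd5, whose reporter was used in the sort, had a median of 59.8 CPM (46.2 to 71.6) at 24 h, 86.2 CPM (72.2 to 122) at 1 h and 98.9 CPM (55.6 to 119.6) in NI. Fgd5 fell by 0.55 log2 units (SE 0.10, adjusted p = 0.000173), and the value was -0.35 with the column series as a term (adjusted p = 0.109). Because Kit, Ly6a, Slamf1 and Fgd5 reporter levels set the gate, their messengers describe the cells that passed it. Flt3, a receptor of multipotent progenitors, had a median of 7.69 CPM (4.15 to 11.3) at 24 h, 54.7 CPM (34.4 to 176) at 1 h and 40.9 CPM (28.6 to 65.9) in NI, with 24 h below both other groups. Flt3 fell by 3.12 log2 units (SE 0.30, adjusted p = 5.34e-08).

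Among transcription factors of HSC 7 of 37 rose and 8 fell (40.5% called, against 52.1% of all genes, median 0.01). Yet many stood under the NI range at both times: 19 medians at 24 h (51.4%, against 17.3% of all genes) and 14 at 1 h (37.8%, against 5.9%). The list had a mean per library of 5.52 to 5.82 log2 CPM at 24 h, 5.53 to 5.84 at 1 h and 5.92 to 6.13 in NI, so that no irradiated library of either time reached the NI range. Hlf, a self-renewal factor, had a median of 258 CPM (176 to 305) at 24 h, 304 CPM (252 to 366) at 1 h and 409.7 CPM (288 to 569.8) in NI. For Hlf the log2 fold change was -0.24 (SE 0.11, adjusted p = 0.0846), which was not called. Mecom, the gene of Evi1, had a median of 91.2 CPM (70.1 to 137) at 24 h, 144 CPM (119 to 181) at 1 h and 169 CPM (107 to 234) in NI. Mecom fell by 0.55 log2 units (SE 0.12, adjusted p = 0.000471), and the value was -0.23 with the column series as a term (adjusted p = 0.325). Erg had a median of 18.9 CPM (13.1 to 20.6) at 24 h, 39.7 CPM (30.5 to 63.8) at 1 h and 32.4 CPM (19.3 to 61.8) in NI. Erg fell by 1.13 log2 units (SE 0.15, adjusted p = 2.76e-06), and the value was -0.15 with the column series as a term (adjusted p = 0.629). Gfi1b, a repressor of HSC and megakaryocyte genes, had a median of 148 CPM (122 to 202) at 24 h, 70.4 CPM (27.5 to 100.7) at 1 h and 121 CPM (71.7 to 181) in NI, with the 1 h median below the NI range. Gfi1b rose by 1.11 log2 units (SE 0.18, adjusted p = 2.79e-05).

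Megakaryocyte genes, part of which HSC with a platelet bias share, were higher in 7 of 12 and lower in 1 (median 0.49). Itga2b, the gene of CD41, had a median of 529 CPM (428 to 829) at 24 h, 215 CPM (141 to 291) at 1 h and 215 CPM (106 to 237) in NI. Itga2b rose by 1.44 log2 units (SE 0.16, adjusted p = 2.36e-07). Pf4, the gene of platelet factor 4, had a median of 237 CPM (149.5 to 671) at 24 h, 76.6 CPM (39.3 to 118) at 1 h and 44.4 CPM (27.7 to 106) in NI. Pf4 rose by 1.95 log2 units (SE 0.34, adjusted p = 0.000187). Gp5 had a median of 54.3 CPM (43.8 to 91.9) at 24 h, 16.5 CPM (8.07 to 26.9) at 1 h and 30.8 CPM (20.3 to 45.3) in NI. Gp5 rose by 1.8 log2 units (SE 0.21, adjusted p = 4.85e-07). In these 3 genes 24 h did not overlap 1 h. Selp, the gene of P-selectin, had a median of 166 CPM (114 to 198) at 24 h, 72.8 CPM (25.4 to 155) at 1 h and 66.2 CPM (29.6 to 127) in NI. Selp rose by 1.14 log2 units (SE 0.27, adjusted p = 0.00203). Summed over the list, 24 h had 1787 to 2746 CPM, 1 h had 1636 to 2151 CPM and NI had 1549.6 to 2236 CPM.

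Markers of other marrow cells went in both directions, beside 26.3% of all genes higher and 25.8% lower. Neutrophil markers had 0 of 14 higher and 6 lower, and their summed level was a median of 113 CPM (92.1 to 631) at 24 h, 589.5 CPM (122 to 1609) at 1 h and 574 CPM (281 to 1823) in NI. The elastase gene Elane had a median of 0.471 CPM (0 to 22.4) at 24 h, 35.9 CPM (0.407 to 173) at 1 h and 48.4 CPM (9.53 to 237) in NI. Elane fell by 3.75 log2 units (SE 1.33, adjusted p = 0.0279). Its call was lost without library 4 of 1 h and without libraries 6 and 8 of 24 h. Erythroid markers had 3 of 10 higher and 5 lower, with all 4 globin genes of the list at 0 in median. How counting treated reads with multiple hits is not stated, so the 0 does not show that globin RNA was absent. The summed level of the list, most of it from Car2, was a median of 2859 CPM (2638 to 3039) at 24 h, 2245 CPM (1779.8 to 2478) at 1 h and 2283 CPM (2039 to 2948) in NI, so that the sum was higher at 24 h than at 1 h without overlap while more members fell than rose. Car1, a carbonic anhydrase gene of erythroid and granulocyte progenitors, had 3 reads over the libraries of 24 h and 8308 over those of 1 h, a ratio of 2558 (95% interval of counting error alone 875.0 to 12406.5), higher at 1 h. Mast and basophil markers had 1 of 5 higher and 2 lower, endothelial markers 0 of 8 higher and 5 lower, and monocyte and macrophage markers 2 of 14 in each direction. Dendritic markers had 1 of 7 higher and 4 lower, B cell markers 2 of 3 higher, T and NK markers 1 of 5 higher, and stromal markers 1 of 6 lower. The T and NK sum was 153 CPM (124 to 235) at 24 h, 84.2 CPM (65.3 to 119) at 1 h and 104.8 CPM (71.8 to 177) in NI. The B cell sum was 74.9 CPM (62.3 to 87.8) at 24 h, 49.8 CPM (43.7 to 54.8) at 1 h and 68.7 CPM (59.3 to 80.7) in NI. Neither sum overlapped between 24 h and 1 h. Of the lineage lists, 1 of 7 lymphoid-primed genes rose and 3 fell, and 2 of 15 myeloid-primed genes rose and 5 fell. Without library 4 of 1 h, 4 monocyte and macrophage markers rose and 3 myeloid-primed genes fell. Of the mast and basophil markers 4 fell without library 8 of 24 h and 1 without library 3, 4 or 6 of 1 h. The part that such cells play in the results above was not tested.

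Proteasome, oxidative phosphorylation and cytosolic ribosomal protein genes rose almost without exception, and these are lists of short genes. The replication-dependent histone list, with a median exon length of 558 bases, had 4 of 15 higher (26.7%, against 26.3% of all genes). Another 9 of its 24 members had too few reads to be tested. How well these libraries capture such messengers was not tested. Its mean log2 CPM was 2.05 at 24 h and 1.85 at 1 h, under the 5 used for the length groups that follow. All 31 proteasome subunit genes rose (median 0.68), as did 70 of 72 oxidative phosphorylation genes (median 0.79) and 76 of 77 cytosolic ribosomal protein genes (median 0.80). With the column series as a term 28, 64 and 50 rose and 0 fell, with medians of 0.50, 0.49 and 0.40. The median exon lengths of these lists were 1420, 731.5 and 710 bases. Genes above a mean log2 CPM of 5 were put in 5 groups of 1367 to 1372 by exon length, and the group with the shortest exons (123 to 1636 bases) had a median change of 0.48 and 73.7% of its genes were called higher. The next 3 groups had medians of 0.17, 0.02 and -0.19, and the group with the longest exons (4688 to 28034 bases) had -0.40 and 59.5% of its genes were called lower. The same order from short to long was seen between the NI libraries of the later and the earlier series, from 0.15 to -0.20, where 58 ribosomal protein, 25 oxidative phosphorylation and 5 proteasome genes were called higher. What the length pattern contributes to these lists was not tested.

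**Figure D5:**
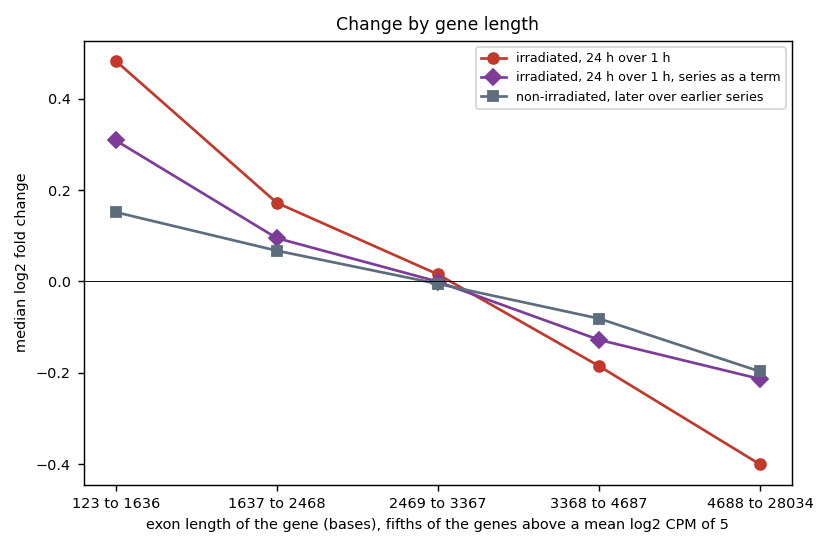
Median log2 fold change (vertical) of genes in 5 groups of equal size by exon length in bases (horizontal), for 24 h over 1 h (red), for the same with the column series as a term (violet) and for NI libraries of the later over the earlier series (grey). All 3 lines fall from short to long genes, the red one from 0.48 to -0.40 and the grey one from 0.15 to -0.20.

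Within these lists, Psma3, a subunit of the proteasome core, had a median of 450.3 CPM (421 to 496) at 24 h, 206 CPM (183 to 251) at 1 h and 244 CPM (209 to 309.96) in NI. Psma3 rose by 1.13 log2 units (SE 0.06, adjusted p = 1.5e-11). The complex I gene Ndufb6 had a median of 163 CPM (149 to 200.2) at 24 h, 78.2 CPM (69.2 to 91.8) at 1 h and 79.3 CPM (65.8 to 114) in NI. Ndufb6 rose by 1.12 log2 units (SE 0.08, adjusted p = 6.83e-10). Cox7c of complex IV had medians of 128 CPM at 24 h, 64.3 CPM at 1 h and 68.7 CPM in NI. Cox7c rose by 1.07 log2 units (SE 0.08, adjusted p = 1.31e-09). The ribosomal protein gene Rpl41 had a median of 549.9 CPM (529 to 674) at 24 h, 248 CPM (204 to 282) at 1 h and 280.2 CPM (198 to 433) in NI. Rpl41 rose by 1.24 log2 units (SE 0.07, adjusted p = 3.26e-11). In all of them 24 h lay above every library of 1 h. Reads of ribosomal protein genes can also come from their many processed copies. Glycolysis and hypoxia genes went both ways, 8 of 35 higher and 18 lower (median -0.30). The lactate dehydrogenase gene Ldha had medians of 3034 CPM at 24 h, 1813 CPM at 1 h and 1955 CPM in NI. Ldha rose by 0.79 log2 units (SE 0.07, adjusted p = 7.29e-09). The glycolytic kinase gene Pgk1 had medians of 200.5 CPM at 24 h, 124 CPM at 1 h and 127 CPM in NI. Pgk1 rose by 0.71 log2 units (SE 0.08, adjusted p = 2.2e-07). The growth factor gene Vegfa had a median of 8.04 CPM (3.37 to 19.4) at 24 h, 46.9 CPM (34.4 to 79.3) at 1 h and 10.2 CPM (4.83 to 17.3) in NI. Vegfa fell by 2.44 log2 units (SE 0.28, adjusted p = 4.37e-07). Aldoc had medians of 16.4 CPM at 24 h, 46.9 CPM at 1 h and 59.6 CPM in NI. Aldoc fell by 1.43 log2 units (SE 0.17, adjusted p = 8.88e-07).

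Stress and repair lists were mixed, beside 26.3% of all genes higher and 25.8% lower. Of 34 NRF2 and antioxidant genes 14 rose and 8 fell (median 0.02). Nfe2l2, the gene of NRF2 itself, had a median of 184 CPM (159 to 194) at 24 h, 367 CPM (292 to 477) at 1 h and 131 CPM (112 to 156) in NI with no overlap between 24 h and 1 h. Nfe2l2 fell by 1.04 log2 units (SE 0.08, adjusted p = 1.98e-09). The thioredoxin gene Txn1 had medians of 443 CPM at 24 h, 236 CPM at 1 h and 269 CPM in NI. Txn1 rose by 1.0 log2 units (SE 0.06, adjusted p = 3.26e-11). The glutathione transferase gene Gstm1 had medians of 110.3 CPM at 24 h, 286 CPM at 1 h and 316 CPM in NI. Gstm1 fell by 1.38 log2 units (SE 0.12, adjusted p = 7.43e-09). The integrated stress and unfolded protein list had 15 of 34 higher and 10 lower. Its member Sdf2l1, an endoplasmic reticulum chaperone partner, had medians of 158 CPM at 24 h, 52.4 CPM at 1 h and 73.5 CPM in NI. Sdf2l1 rose by 1.62 log2 units (SE 0.18, adjusted p = 2.42e-07). Ppp1r15a, which restarts translation after stress, had a median of 29.4 CPM (20.9 to 32.4) at 24 h, 201 CPM (114 to 276) at 1 h and 61 CPM (32.96 to 132) in NI. Ppp1r15a fell by 2.77 log2 units (SE 0.16, adjusted p = 3.26e-11). Of 29 heat shock chaperone genes 15 rose and 4 fell, or 8 fell without library 5 of 24 h. The mitochondrial chaperone gene Hspe1 had medians of 155 CPM at 24 h, 61.8 CPM at 1 h and 77.1 CPM in NI. Hspe1 rose by 1.24 log2 units (SE 0.12, adjusted p = 7.27e-08). The cytosolic chaperone partner gene Dnajb1 had medians of 213 CPM at 24 h, 369.9 CPM at 1 h and 215 CPM in NI. Dnajb1 fell by 0.79 log2 units (SE 0.09, adjusted p = 2.05e-07).

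Cholesterol synthesis genes rose in 14 of 26 and fell in 2 (median 0.30). Msmo1, a sterol demethylase gene, had a median of 96.2 CPM (77.4 to 130.3) at 24 h, 35.8 CPM (25.2 to 70.3) at 1 h and 59.7 CPM (33.8 to 80.9) in NI. Msmo1 rose by 1.36 log2 units (SE 0.17, adjusted p = 1.94e-06). Of 43 double-strand break repair genes 13 rose, 6 fell and 24 were not called (median 0.22), and 14 rose and 1 fell with the column series as a term. The share of repair genes called was 44.2%, against 52.1% of all genes.

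Most of the genes with the largest rises were near their NI level at 1 h. Serpine2, a secreted protease inhibitor (chr1:79794321-79858665 in mm10), had a median of 833 CPM (737 to 974) at 24 h, 13.98 CPM (10.6 to 19.9) at 1 h and 8.67 CPM (3.26 to 15.7) in NI, and no 24 h library came near the others. Serpine2 rose by 5.91 log2 units (SE 0.15, adjusted p = 8.79e-17). Id1, an inhibitor of differentiation factors that BMP signals induce, had a median of 23.4 CPM (14.9 to 29.3) at 24 h, 1.11 CPM (0.537 to 2.33) at 1 h and 3.13 CPM (1.05 to 5.48) in NI. Id1 rose by 4.16 log2 units (SE 0.25, adjusted p = 9.16e-11). Svop had a median of 23.9 CPM (6.88 to 31.3) at 24 h, 0.0235 CPM (0 to 0.14) at 1 h and 0 CPM (0 to 0.0449) in NI. Svop rose by 8.82 log2 units (SE 0.47, adjusted p = 1.31e-11). The matrilin gene Matn1 had a median of 27.8 CPM (13.8 to 54.7) at 24 h, 0 CPM (0 to 0.306) at 1 h and 0 CPM (0 to 1.53) in NI. Matn1 rose by 8.75 log2 units (SE 0.52, adjusted p = 6.13e-11). Neither was called with the column series as a term, where Svop had a log2 change of 7.05 (adjusted p = 0.953) and Matn1 had 3.91 (adjusted p = 0.541). The series step in that fit comes from NI, where both had a median of 0 CPM, so the fit cannot decide these genes. Pm20d1, Acaa1b, Pik3r3 and Cald1 had 24 h medians of 17.2, 11.7, 7.198 and 10.2 CPM, against 1 h medians of 0.335, 0.218, 0.402 and 0.429 CPM, without overlap. Jchain, a plasma cell gene with a lower median at 24 h (0.0742 CPM) than at 1 h (1.298 CPM), ranks among the largest only through libraries 1 and 2 of 24 h with 200.5 and 62.98 CPM, where the other 6 had at most 0.44 CPM. The fitted value was 4.47 (SE 1.73, adjusted p = 0.0415), and the call was lost without either, and without any 1 of libraries 1 and 3 to 8 of 1 h.

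Several of the largest falls were in genes with little signal at 24 h and in NI. Dusp8, a phosphatase of stress kinases, had 0 reads over the libraries of 24 h and 1634 over those of 1 h, and was at least 504-fold lower against a floor of 3 reads over the group. Phlda1 had a median of 1.93 CPM (0.467 to 3.79) at 24 h, 38.8 CPM (25.9 to 50.2) at 1 h and 0.873 CPM (0.0899 to 1.95) in NI. Phlda1 fell by 4.3 log2 units (SE 0.32, adjusted p = 1.45e-09). Rnd1, a small GTPase gene, had a median of 0.947 CPM (0 to 3.401) at 24 h, 23.9 CPM (18.5 to 30.5) at 1 h and 0.82 CPM (0.251 to 2.36) in NI. Rnd1 fell by 4.22 log2 units (SE 0.59, adjusted p = 7.28e-06). In both, 24 h and NI overlapped and 1 h lay above. Hcar2, a receptor of hydroxybutyrate, had a median of 0.304 CPM (0 to 1.78) at 24 h, 7.27 CPM (4.202 to 12.1) at 1 h and 0.472 CPM (0 to 1.74) in NI. Hcar2 fell by 3.76 log2 units (SE 0.79, adjusted p = 0.000487), and the value was -2.5 with the column series as a term (adjusted p = 0.107). F13a1, a clotting factor gene of monocytes and megakaryocytes, had a median of 0.0447 CPM (0 to 1.63) at 24 h, 7.305 CPM (0 to 50.2) at 1 h and 5.22 CPM (0.806 to 16.4) in NI, with overlapping groups. F13a1 fell by 4.97 log2 units (SE 1.18, adjusted p = 0.00198).

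The course over time depended on dmPGE2 for many genes. The change from 1 h to 24 h differed between vehicle and dmPGE2 in 2910 of 13764 genes (21.1%), 1405 with a larger value in vehicle (10.2%) and 1505 with a smaller one (10.9%). The 4 groups share no library, and the 24 h dmPGE2 group is uneven, so that 1986 genes passed without its libraries 5, 6 and 7. The difference, signed log2 change with vehicle minus that with dmPGE2, was positive for 55 of the 74 G2/M genes and 38 of the 55 G1/S genes. It was negative for none of either. It was negative for 27 of 52 p53 targets and positive for 2, and negative for 15 of 31 NF-kB genes and positive for 0. A negative difference can be a smaller rise or a deeper fall with vehicle. The NF-kB list had a median change of -1.75 with vehicle and a median difference of -1.15. Gdf15 averaged 100.98 ± 14.5 CPM at 24 h and 1194 ± 214 CPM at 1 h with vehicle, and 170.2 ± 112 CPM at 24 h and 33.2 ± 27.4 CPM at 1 h with dmPGE2 (SD, n = 8 each). Its log2 time change was -3.56 with vehicle and 2.36 with dmPGE2, a difference of -5.92 (SE 0.56, adjusted p = 9.23e-09). Egr1 averaged 177 ± 40.9 CPM at 24 h and 94.7 ± 59.5 CPM at 1 h with vehicle, and 125 ± 29.4 CPM at 24 h and 856 ± 363 CPM at 1 h with dmPGE2, a difference of 3.67 (SE 0.41, adjusted p = 1.53e-07).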

How the data were processed

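The deposited table holds whole-number counts of reads per gene, not normalized, for 24421 genes and 54 libraries, per the file headers. The submitters' processing notes name STAR 2.5.2b, featureCounts, Subread 1.5.1 and the build mm10. RNA of sorted cells was amplified with SMART-Seq v4 and made into Nextera XT libraries, per the labels' protocols. This chemistry marks no strand and no molecules, so intervals and floors cover counting error only. How counting treated strand and multiple hits is not stated in these sources. A spreadsheet had turned 27 symbols into dates, 2 of them shared by several genes.

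Genes were kept by filterByExpr at a minimum of 10 reads, leaving 12975, and tested in edgeR 4.0.16 (R 4.3.3) with TMM factors and a robust quasi-likelihood fit on the 16 libraries. Adjusted p-values follow Benjamini and Hochberg over all genes tested, and each SE was derived from the fold change and its F statistic. CPM of single genes used TMM factors of 31 libraries, and log2 CPM a prior of 3. Sums over a list used the total count of each library without these factors, and took in members not tested. CPM in the dmPGE2 comparison used TMM factors of its 32 libraries. The column series fit adds 1 term to 3 groups over 31 libraries. Floors were 3 reads over a group. The script recovered known changes in simulated counts. Alternatives used DESeq2 1.42.0, other scaling, filters, libraries and left-out libraries.

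The members and lists were chosen with earlier results of these data known, and lists share genes. Named genes were the 12 highest and 12 lowest changes among genes whose mean log2 CPM reached 2, the leading called members of each list, and a set of fixed genes. Promoter sequences are from RefSeq (GRCm38.p6). Values of a few single list members are not reported here.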

Additional observations from a re-analysis of the deposited data

Results flagged for a closer look

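Of 288 sets of 8 libraries looked at, 22 held a library far from the others by Dixon's test at the 95% level, which chance alone gives in about 5% of sets. All values are in log2 CPM. At 24 h, library 4 was high in Pcna (8.40) and low in Rel (-1.82), and library 1 was low in Cd83 (-2.92). Library 8 was high in Cd48 (4.75) and low in Svop (2.81). Library 5 was high in Gp5 (6.52), and library 6 was low in Pm20d1 (3.12).

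At 1 h, library 3 stood apart in 10 of these sets. It was low in Trp53 (7.79), Ccne1 (2.37) and Psme2 (6.73), and in the mean of the MYC and ribosome biogenesis list (6.30). It was high in Btg1 (7.94), Cd69 (10.22), Nr4a1 (7.58), Cd83 (7.46) and Flt3 (7.46), and in the mean of the CDK inhibitor and quiescence list (6.78). Without it 6720 genes were called, against 6760 with it. Among the other libraries of 1 h, library 1 was high in Fos (6.33) and library 6 low in Procr (5.90). Library 5 was high in Erg (6.00), while library 4 was low in Gfi1b (4.79) and high in Ldha (11.18).

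The change over time differed between vehicle and dmPGE2 by a test of the difference itself, edgeR's quasi-likelihood test over 32 libraries. The genes with the largest values in vehicle were Jchain with a difference of 7.01 (adjusted p = 0.038), F3 with 4.75 (adjusted p = 0.00307), Gbp10 with 3.78 (adjusted p = 0.00127), Egr1 with 3.67 (adjusted p = 1.53e-07) and Nr4a1 with 3.38 (adjusted p = 0.000103). The genes with the smallest were Mmp8 with -7.60 (adjusted p = 0.0114), F13a1 with -6.49 (adjusted p = 0.00206), Mab21l3 with -6.46 (adjusted p = 1.48e-09), Gdf15 with -5.92 (adjusted p = 9.23e-09) and Car1 with -4.60 (adjusted p = 0.0349). Jchain rests on libraries 1 and 2 of 24 h with vehicle.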

How the results depend on the processing

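The 6760 genes called between 24 h and 1 h became 1784 when tested against a 1.5-fold change (glmTreat) and 4271 with the column series (library batch) as a term, where the larger model and 31 libraries were used. All other settings gave 5274 to 7291, and leaving out 1 library at a time gave 6365 to 6825. The count of genes changed at least 2-fold, 1543 as reported, was 1432 to 1649 without 1 library. The count of called genes past the NI spread, 1918, was 4626 when 2 SD took the place of the range. With total counts alone as the scaling, 43.9% of calls were higher and the median of all genes was -0.10. The time change by treatment, 2910 genes, was 1986 without libraries 5, 6 and 7 of dmPGE2 at 24 h and 3277 with DESeq2.

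Of 118 genes named, 110 were called, and 83 of these kept call and direction under all 29 alternatives. With the column series as a term 16 lost the call, 20 lost it under another setting, and 0 reversed. Among 2088 list counts, 151 moved by over 1.5 times, 44 of them under glmTreat. The settings without libraries 6 and 8 of 24 h and with sex as a term were chosen after seeing the data. No paired analysis was possible because the column names carry no replicate number and the irradiated groups share 0 tags. Depth limits genes with few reads, such as Ano3, Car1, Cxcl2 and Dusp8. The G1/S, interferon, circadian clock, lymphoid-primed, T and NK, endothelial and stromal lists each gained 1 called member in a direction that had 0 or 1, without at least 1 of the 16 libraries.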

Other observations

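By their sex-linked genes, the 15 NI libraries were 10 male and 5 female, where their labels give 8 male and 7 female. By the same genes both irradiated vehicle groups held 4 females and 4 males.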
